A study of Penicillium oxalicum with 12 samples.

Results

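The analysis concerns 167 genes of the filamentous fungus Penicillium oxalicum whose transcripts were strongly lowered in the strain gAraRC and stayed within about 2-fold of the wild type in the strains gCXC and gXlnRC. Messenger RNA was sequenced from mycelium of 4 strains, with 3 libraries each. WT is the wild-type strain 114-2. The strain gCXC expresses a chimeric transcription factor called CXC, gXlnRC expresses the regulator XlnR with the substitution A871V, and gAraRC expresses the regulator AraR with the substitution A731V. All strains grew for 24 h with 2% glucose in Vogel's medium and then for 4 h without a carbon source, at 30 °C and 200 rpm, so every library comes from carbon-starved mycelium. No source used here says whether an engineered strain is a single clone, which promoter drives its factor or whether it keeps the native gene.

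The genes were chosen from the measured values themselves. A gene's level is FPKM, the fragments counted in it, scaled to its length and to the total of its library, and its difference between groups is the difference of the group means of log2(FPKM + 1). Of the 9979 genes in the deposited table, 9125 reached 1 FPKM in 3 or more of the 12 libraries and were tested. A gene was taken when its gAraRC minus WT difference was -1.75 or lower and its gCXC minus WT and gXlnRC minus WT differences both lay between -1 and 1. In all, 358 genes passed the gAraRC threshold and 167 of them also passed the other limits, while the other 191 did not. A list of 13 locus tags was left out by design, and 0 of those 13 would have met the limits. Because all 4 group means entered the choice, the differences from WT and between strains are given below as a description with their errors, and no p-value is printed for any of these genes.

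AraR and XlnR are zinc cluster transcription factors. In Aspergillus niger, AraR is known to activate genes for the uptake and breakdown of L-arabinose and for the pentose pathway, and XlnR to activate genes for xylanases and for D-xylose use. When the carbon source runs out, filamentous fungi relieve carbon catabolite repression, turn to stored and recycled material and begin to secrete scouting enzymes. The deposited table names genes by PDE locus tags without function, and 0 of its tags matched the reference gene table, so no name or role can be given to any of the 167 genes, and neither the engineered regulators nor markers of the mycelium could be checked. In RNA from whole mycelium, fewer cells that make a transcript and less transcript per cell cannot be told apart.

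The number of reads behind an FPKM value was recovered from the table, because its values are whole multiples of what 1 read is worth. Library totals lay between 14549534 reads in gAraRC replicate 2 and 20092360 in gXlnRC replicate 3, and they count reads assigned to genes. The median difference of all tested genes was -0.34 for gAraRC minus WT, -0.10 for gXlnRC minus WT and -0.003 for gCXC minus WT, so the middle of the gAraRC distribution lay below that of WT in these units. The number of genes that met the rule depends on the scaling. When libraries were scaled by the median of ratios instead, the median of all genes stood at -0.01 and 73 genes met the same limits, of which 68 are among the 167. Quantile normalization gave 81 genes (76 shared) and TPM gave 118 (109 shared). Relative to the median of all tested genes in gAraRC, the differences of the 167 genes ran from -4.33 to -1.42, with a median of -1.67.

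Across the 167 genes the gAraRC libraries stood below everything else. The median difference from the WT mean was -2.096, -1.987 and -1.996 in gAraRC replicates 1, 2 and 3, against -0.21, -0.27 and -0.28 in the gCXC libraries and -0.24, -0.30 and -0.15 in the gXlnRC libraries. For each of the 167 genes the highest gAraRC library lay below the lowest of the other 9 libraries. Among all tested genes this held for 37.8%, and since the choice used the same libraries nothing is read from the difference. The limma fit across all genes called all 167 lower in gAraRC than in WT, where 57% of all tested genes were called lower at a Benjamini-Hochberg adjusted p below 0.05. It also called all 167 lower in gAraRC than in gCXC, where 53.2% of all tested genes were, and lower than in gXlnRC, where 49.1% were. The rule used all of these contrasts and sets the gAraRC mean of each gene below the other means, so the calls restate the choice and nothing is read from them. The mean gAraRC level was between 3.83% and 29.3% of the mean WT level, with a median of 23.0%, and 3 genes stood below 10% of WT.

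**Figure D1:**
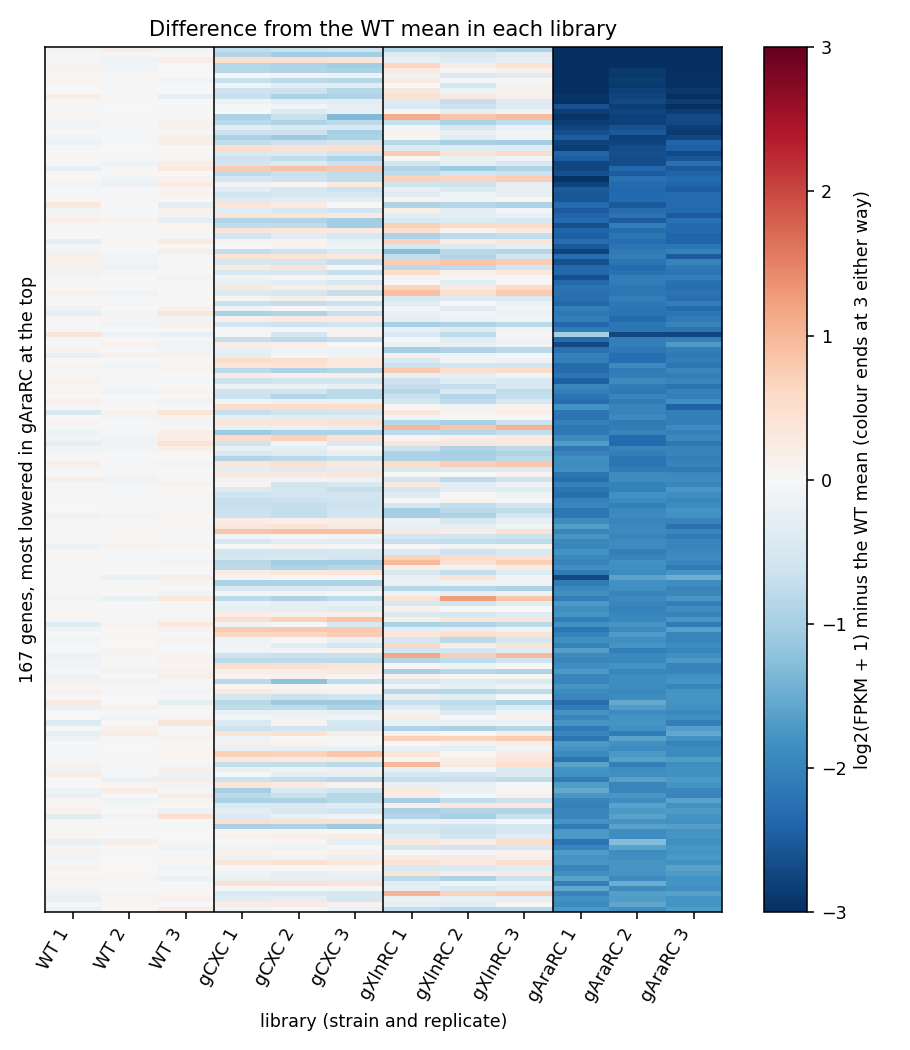
Difference of log2(FPKM + 1) from the WT mean for each of the 167 genes (rows, sorted by the gAraRC mean) in each of the 12 libraries (columns); blue is below WT and red above, and colours end at 3 in either direction. The 3 gAraRC columns are blue in every row, with library medians of -2.096, -1.987 and -1.996, while the gCXC and gXlnRC columns mix red and blue rows around medians of -0.15 to -0.30.

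These genes made up a visible part of the wild-type transcriptome. They held 6.66% ± 0.092 of the reads counted in genes in WT (mean ± SD, n = 3 libraries), 5.71% ± 0.036 in gCXC, 5.82% ± 0.1 in gXlnRC and 1.54% ± 0.015 in gAraRC. The 3 gAraRC shares were 1.55%, 1.55% and 1.53%, and the lowest share elsewhere was 5.67% in gCXC replicate 2. The rule set every one of these genes lower in gAraRC, so the smaller share there restates the choice and nothing is read from it. Ranked by FPKM among the tested genes, 10 of the 167 were among the 100 most abundant in WT and 2 were in gAraRC. Among the 500 most abundant genes there were 34 in WT and 9 in gAraRC. For scale, the set is 167 of 9125 tested genes. The rule used the WT and gAraRC levels, so the lower counts in gAraRC also restate the choice. The choice favours higher WT levels as well, so nothing is read from the WT share or the WT ranks.

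The gene with the lowest gAraRC minus WT difference was PDE_07936. Its FPKM was 771, 918 and 768 in the WT libraries, 491, 509 and 526 in gCXC, 454, 454 and 429 in gXlnRC and 28.8, 29.4 and 35.9 in gAraRC. By FPKM it held rank 191 among tested genes in WT and rank 3603 in gAraRC, where its mean level was 3.83% of WT. The log2 difference (± SE, limma) was -4.67 ± 0.09 in gAraRC, against -0.68 ± 0.09 in gCXC and -0.87 ± 0.09 in gXlnRC, so the gene was also somewhat lower in the other engineered strains, and their libraries did not overlap with those of WT.

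PDE_06609 was next. It had 1456, 1368 and 1459.8 FPKM in WT and 96.1, 104 and 104 in gAraRC, a log2 difference of -3.80 ± 0.06. In gCXC it stood at 770.3, 694 and 687 and in gXlnRC at 1073, 1025 and 1133. With a gCXC minus WT difference of -0.99 it sat just inside the limit of -1, and the 4 strains did not overlap for this gene.

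PDE_08122 differed from both in its order across strains. It had 553, 519 and 652 FPKM in WT, 797, 789 and 738 in gCXC, 479, 441 and 485 in gXlnRC and 58.8, 48.5 and 51.1 in gAraRC. All gCXC libraries lay above all WT libraries, and all gXlnRC libraries lay below them, while gAraRC was at 9.18% of the WT mean (log2 difference -3.42 ± 0.09, limma).

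Several of the 10 most lowered genes shared another order of means, with gXlnRC highest, then WT, gCXC and gAraRC. PDE_00287, with a coding length of 774 nt, had 404, 362 and 379 FPKM in WT, 597, 446 and 517 in gXlnRC, 210.1, 202 and 188 in gCXC and 39.4, 44.3 and 46.5 in gAraRC. PDE_08287 (555 nt) had 462, 409 and 434, then 531, 454 and 484, then 241, 232 and 226, then 41.7, 58.8 and 50.3 FPKM in WT, gXlnRC, gCXC and gAraRC. For both, the gCXC libraries lay below all WT and above all gAraRC libraries, at 52.4% and 53.6% of the WT mean, whereas gXlnRC was clear of WT in PDE_00287 and overlapped with it in PDE_08287. PDE_08005 (423 nt) repeated this at a lower level, with 54.02 ± 8.52 FPKM in WT (mean ± SD, n = 3 libraries), 66.4 ± 6.89 in gXlnRC, 29.5 ± 3.45 in gCXC and 6.31 ± 0.636 in gAraRC, and its WT and gXlnRC libraries overlapped. So did PDE_01118, with 581 ± 12.2, 634 ± 105, 356 ± 31.1 and 76.6 ± 5.46 FPKM in WT, gXlnRC, gCXC and gAraRC. The gAraRC minus WT differences (± SE, limma) were -3.11 ± 0.10 for PDE_00287, -3.10 ± 0.10 for PDE_08287, -2.90 ± 0.12 for PDE_08005 and -2.91 ± 0.11 for PDE_01118.

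PDE_04154 stayed within 0.3 log2 units of WT in gCXC and gXlnRC. Its FPKM was 396, 424 and 409.6 in WT, 394, 385 and 370.4 in gCXC, 371, 303 and 328 in gXlnRC and 43.7, 54.1 and 49.9 in gAraRC. The highest gCXC library lay just below the lowest WT library, and limma called the gene lower than WT in gXlnRC and not in gCXC, while the gAraRC minus WT difference was -3.04 ± 0.08 (limma).

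**Figure D2:**
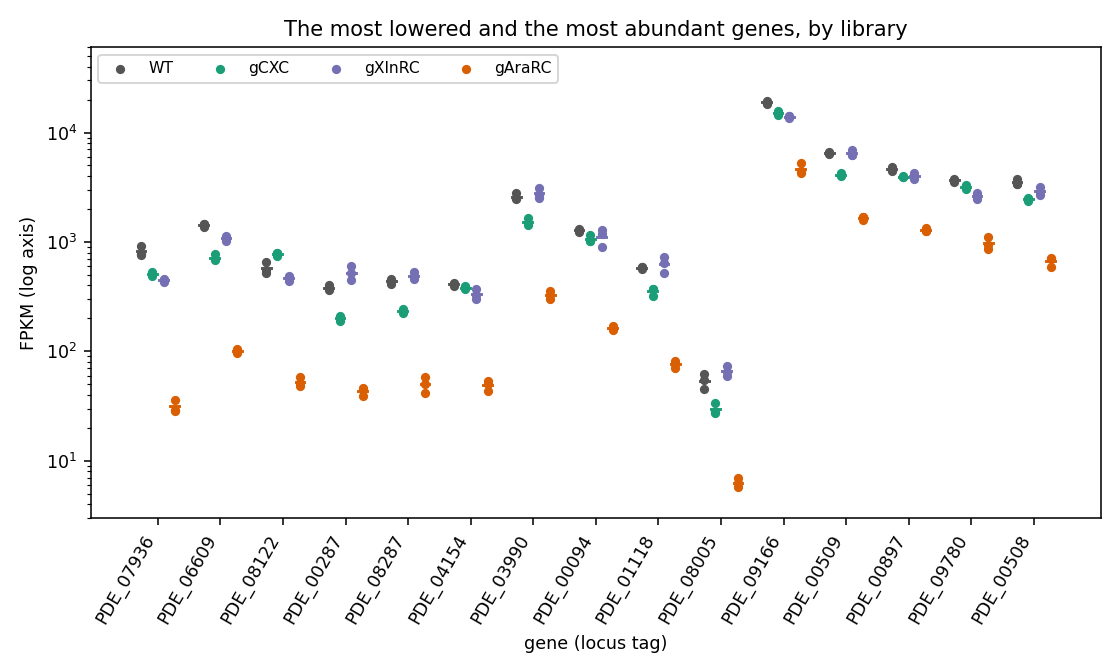
FPKM (log axis) of the 10 genes most lowered in gAraRC, followed by the 5 of the 6 genes most abundant in WT that are not already shown; points are libraries, short bars the means of 3 libraries, and colours the strains. The gAraRC points (orange) lie below all other points of the same gene. In gAraRC the most lowered gene, PDE_07936, stood at 31.4 ± 3.96 FPKM, and the gene most abundant in WT, PDE_09166, at 4662 ± 529.

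In the main scaling the set also held some of the most abundant transcripts of the wild type. PDE_09166, with a coding length of 366 nt, was the fourth most abundant tested gene in WT by FPKM, at 19406, 18311 and 18737. It stood at 15630.5, 14505 and 15047 in gCXC, 13481, 14037 and 14130.4 in gXlnRC and 5269, 4415 and 4302 in gAraRC. The groups followed the order WT, gCXC, gXlnRC and gAraRC with no overlap, and its share of all reads was 0.689% ± 0.020 in the WT libraries and 0.171% ± 0.019 in those of gAraRC (SD, n = 3). At rank 26 in gAraRC it remained an abundant transcript.

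PDE_00509 and PDE_00508 carry consecutive locus tags and were both abundant. PDE_00509 had 6603, 6435 and 6316 FPKM in WT and 1574, 1703 and 1673 in gAraRC, and PDE_00508 had 3410.1, 3401 and 3780.0 and 595, 694 and 711. In gXlnRC PDE_00509 stood at 6191, 6992 and 6206, overlapping with WT, whereas PDE_00508 stood at 2684, 3164 and 2877, below WT. In gCXC both were lower than in any WT library, at 3970.4 to 4278 and 2381 to 2505 FPKM.

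PDE_00897 had 4631 ± 199 FPKM in WT and 1285 ± 59.98 in gAraRC (mean ± SD, n = 3 libraries), and PDE_09780 had 3644 ± 127 and 973 ± 121. Their gCXC and gXlnRC means lay between 71.95% and 86.5% of WT. PDE_03990, a short gene of 252 nt, was the sixth of these abundant genes and among the 10 most lowered as well. It had 2805, 2530.4 and 2449 FPKM in WT, 3117, 2520.4 and 2706 in gXlnRC, 1638, 1483 and 1438 in gCXC and 304, 358 and 331 in gAraRC, the same order of means as in PDE_00287, although its WT and gXlnRC libraries overlapped. The gAraRC minus WT difference (± SE, limma) was -2.97 ± 0.09 for PDE_03990, against -2.02 ± 0.09 for PDE_09166, -1.97 ± 0.07 for PDE_00509, -2.40 ± 0.08 for PDE_00508, -1.85 ± 0.07 for PDE_00897 and -1.91 ± 0.09 for PDE_09780. With median-of-ratios scaling the differences were -1.66 for PDE_09166, -1.61 for PDE_00509, -1.49 for PDE_00897 and -1.56 for PDE_09780. These genes then missed the limit of -1.75, so their place in the set depends on the scaling. PDE_00508 and PDE_03990, at -2.05 and -2.61, still passed that limit.

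The differences were spread unevenly beyond the threshold. In gAraRC, 82 of the 167 genes had a difference above -2, 27 had one of -2.5 or lower and 6 had one of -3 or lower. Just inside the limit were PDE_03718 (difference -1.76, 17.98 to 23.04 FPKM in WT and 5.23 to 5.904 in gAraRC), PDE_07609 (-1.76, 30.9 to 33.6 and 7.803 to 10.2) and PDE_07471 (-1.75, 11.2 to 14.4 and 2.81 to 3.28). Just outside were PDE_05805 at -1.749, PDE_00126 at -1.749 and PDE_03967 at -1.747. The limma standard errors of these 6 differences, 0.066 to 0.10, were larger than their distances to the limit, so the edge of the set is not sharp.

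Depth was ample for most of the genes. The median over the 167 genes of the fewest reads in any gAraRC library was 259, and 39 genes had a gAraRC library with fewer than 100 reads. Only 4 genes had one with fewer than 10 reads. PDE_06841, a gene of 201 nt named here because of its low values, had 26, 19 and 14 reads in the WT libraries and 7, 0 and 0 in gAraRC, so its lowering rests on few reads and its difference of -2.15 carries a standard error of 0.40 (limma). PDE_00095 had 19, 25 and 30 reads in WT and 4, 1 and 2 in gAraRC.

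In gCXC and gXlnRC the rule allowed changes of less than 2-fold on this scale, and many of the 167 genes were called there. Against WT, limma called 84 of the 167 genes lower in gCXC, where 26.5% of all tested genes were called lower, and 30 higher, where 23.8% of all tested genes were, which makes 114 in either direction against 50.3%. In gXlnRC it likewise called 84 lower, against 35.5% of all tested genes, and 30 higher, against 19.1%, again 114 in either direction, against 54.6%. The other 53 genes passed the test in neither direction in gCXC, and the same number did so in gXlnRC. All calls were made at a Benjamini-Hochberg adjusted p below 0.05 over all tested genes. The equal counts in both strains belong to the main scaling. With median-of-ratios scaling, TPM and quantile normalization, 68, 69 and 68 genes were called lower in gXlnRC and 82, 76 and 81 in gCXC. Called higher were 35, 33 and 37 in gXlnRC and 33, 34 and 34 in gCXC. The shares of all tested genes given above are those of the main scaling. The rule used these contrasts and cut them at -1 and 1, so the shares are set side by side and nothing is read from them. The median difference of the 167 genes was -0.24 in gCXC, against -0.003 for all tested genes, and -0.21 in gXlnRC, against -0.10. The gXlnRC median depends on the scaling, at -0.097 with median-of-ratios scaling, -0.114 with TPM and -0.121 with quantile normalization. These 3 values are not to be set against the -0.10 of all tested genes, which belongs to the main scaling. The all-gene gXlnRC medians under the other scalings are not given here. In the main scaling the median of the 167 genes lay 0.11 below that of all tested genes in gXlnRC. In gCXC the 167 differences ran from -0.99 to 0.87, with 119 below 0, and in gXlnRC from -0.99 to 0.96, with 113 below 0. Both engineered strains were compared with the same 3 WT libraries.

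**Figure D3:**
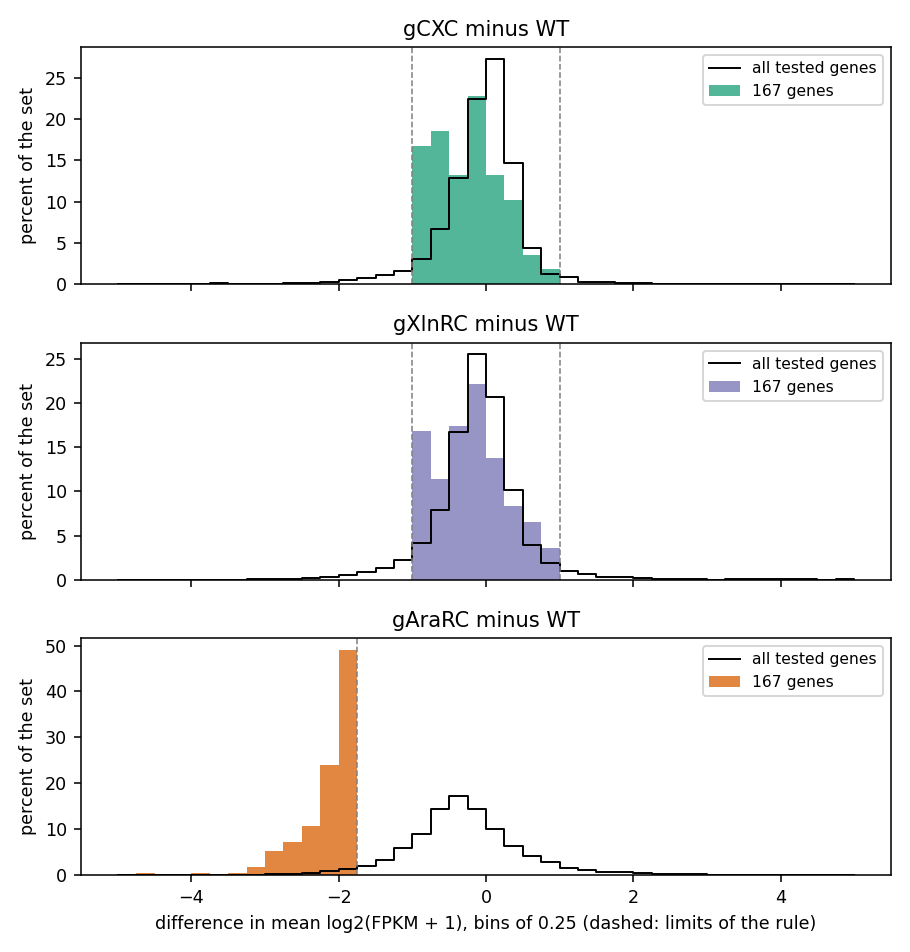
Share of genes (percent of the set) by the difference of mean log2(FPKM + 1) from WT, in bins of 0.25, for the 167 genes (bars) and all tested genes (line), in gCXC, gXlnRC and gAraRC; dashed lines are the limits of the rule. In gAraRC the bars start at the limit of -1.75 and thin out towards -4.67, and in gCXC and gXlnRC they fill the range between -1 and 1 with medians of -0.24 and -0.21.

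The genes at the ends of these ranges lay towards the limits of the rule and are described as extremes. The quartiles of the 167 differences were -0.64 and 0.09 in gCXC and -0.58 and 0.10 in gXlnRC. PDE_00053 had the highest gCXC minus WT difference, with 545, 561 and 531 FPKM in WT, 974, 1004 and 1025 in gCXC, 664, 641 and 719 in gXlnRC and 140.3, 145 and 139 in gAraRC. It was called higher than WT in gCXC and in gXlnRC and stood at 25.9% of WT in gAraRC, with no overlap between any of the 4 strains. PDE_02350, with the lowest gCXC minus WT difference, had 98.95, 98.02 and 94.8 FPKM in WT, 49.01, 50.7 and 45.4 in gCXC, 65.4, 63.6 and 67.4 in gXlnRC and 21.4, 31.5 and 30.03 in gAraRC. The gCXC mean was 49.7% of WT, and the gene was called lower than WT in every engineered strain.

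In gXlnRC the highest differences from WT belonged to PDE_08382 and PDE_09250. PDE_09250 had 271, 273 and 293 FPKM in WT, 558, 499 and 579.8 in gXlnRC, 240.3, 238 and 228 in gCXC and 61.98, 64.4 and 73.5 in gAraRC. Its gXlnRC level was 196% of WT, close to the upper limit of the rule. At the other end PDE_06586 had 525, 570.1 and 680.4 FPKM in WT and 244, 333 and 319.7 in gXlnRC, and PDE_08178 had 27.6, 30.4 and 36.2 and 16.9, 15.3 and 14.8. Both were lower still in gAraRC, at 85.5 to 145 and 3.71 to 5.07 FPKM.

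The strains gCXC and gXlnRC were also compared with each other. Of the 167 genes, limma called 65 (38.9%) higher in gCXC than in gXlnRC, where 36.1% of all tested genes were called higher. It called 55 (32.9%) lower, where 22.5% were, which makes 120 (71.9%) in either direction against 58.6%. Both group means entered the rule, so these shares, and the share of wide gaps below, are set side by side and nothing is read from them. TPM gave 62 higher and 56 lower, whereas median-of-ratios scaling turned the balance to 56 higher and 61 lower, and quantile normalization to 57 and 61. At least 1 log2 unit separated the strains for 24 genes (14.4% of the set, against 8.58% of all tested genes), with 7 higher and 17 lower in gCXC. The extremes were PDE_08382 and PDE_08391, which ran in opposite directions. PDE_08382 had 52.8, 43.6 and 47.4 FPKM in gXlnRC, 25.1, 22.9 and 24.2 in WT, 11.9, 14.8 and 9.08 in gCXC and 2.28, 2.59 and 2.92 in gAraRC, a gCXC minus gXlnRC difference of -1.94 ± 0.14 (SE, limma). PDE_08391 had 40.2, 43.1 and 41.6 FPKM in gCXC, 19.2, 22.3 and 28.2 in WT, 12.1, 10.5 and 11.7 in gXlnRC and 2.62, 3.65 and 3.19 in gAraRC, a difference of 1.78 ± 0.13. In both genes the strains did not overlap, and gAraRC was the lowest.

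The rule made no use of where a gene lies, and the locus tags give a coarse view of it, on the assumption that consecutive tag numbers are neighbours in the genome, which the files do not state. Of the 167 genes, 30 (18%) had another of the 167 at the next tag on either side, against 267 of the 8958 other tested genes (2.98%). Within 2 tags the numbers were 41 (24.6%) and 521 (5.82%), and within 5 tags 47 (28.1%) and 1243 (13.9%). These are counts of one chosen set and were not tested. No source used here gives the strand setting of the authors' counting, so overlapping neighbours on opposite strands could share reads, and the part of this in the counts was not tested.

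The longest run held 4 of the genes within 5 tags, PDE_00092, PDE_00094, PDE_00095 and PDE_00096. PDE_00094 was the most abundant of them, with 1318, 1231 and 1289 FPKM in WT, 1169, 1017 and 1023 in gCXC, 1285, 892 and 1184 in gXlnRC and 157, 171 and 164 in gAraRC. PDE_00092 had 465, 498 and 479 FPKM in WT and 76.5, 84.4 and 89.8 in gAraRC, PDE_00096 had 54.7, 70.9 and 79.9 and 13.001, 13.2 and 11.9, and PDE_00095, a gene with few reads, had 4.17, 4.71 and 7.48 and 0.989, 0.252 and 0.422. The run was not lowered as a block. PDE_00093, between the first and the second of these genes, had 30.95, 32.3 and 37.3 FPKM in WT and 27.5, 28.99 and 27.9 in gAraRC (difference -0.24 ± 0.09, SE, limma), PDE_00097 after them had 15.2, 15.5 and 15.6 and 5.402, 6.82 and 6.92 (-1.16 ± 0.16), and PDE_00091 before them was higher in gAraRC than in WT (0.75 ± 0.10). Within the run the other strains differed as well, since PDE_00092 was lower in gCXC and in gXlnRC (-0.73 and -0.64), while PDE_00096 stood at -0.01 in gCXC and 0.44 in gXlnRC.

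The second run comprised PDE_05338, PDE_05339 and PDE_05340. PDE_05338 (279 nt) had 314, 319 and 329 FPKM in WT, 322, 238 and 268 in gCXC, 313, 259.7 and 298 in gXlnRC and 44.3, 46.8 and 43.6 in gAraRC, so the highest gCXC library reached into the WT range and the highest gXlnRC library came just below it. PDE_05339 had 60.5, 64.5 and 76.8 in WT and 14.3, 16.3 and 15.6 in gAraRC, and its gCXC and gXlnRC libraries, at 30.9 to 35.04 and 36.4 to 39.5, fell between them. PDE_05340, a long gene of 4296 nt, had 9.55, 9.76 and 11.4 in WT and 0.99, 1.31 and 1.23 in gAraRC, and its gXlnRC libraries, at 8.23 to 11.7, overlapped with WT. The 4 tags before this run also had negative gAraRC minus WT differences, between -1.60 and -0.57, without reaching the threshold. On the other side PDE_05341 was also called lower in gAraRC, at -0.39 ± 0.09, near the median of -0.34 over all tested genes. PDE_05342 stood at 0.56 ± 0.09 in gAraRC and 3.27 ± 0.09 in gXlnRC.

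PDE_07936, the most lowered gene, had no other of the 167 within 4 tags, and the tested genes on one side of it were low too while those on the other side were not. PDE_07935 had 563, 647 and 550.3 FPKM in WT, 247, 269.9 and 265 in gCXC, 150.04, 184 and 184 in gXlnRC and 60.6, 56.99 and 64.4 in gAraRC. It was below -1 in all 3 strains and so failed the rule, as did PDE_07933, with differences of -1.78, -2.20 and -3.10 in gCXC, gXlnRC and gAraRC. On the other side PDE_07937 had 11.7, 11.2 and 11.9 FPKM in WT and 12.1, 10.4 and 10.4 in gAraRC. Its gAraRC minus WT difference was -0.08, and those of PDE_07938, PDE_07939 and PDE_07940 were 0.20, -0.14 and 0.15. None of these 4 genes was called in gAraRC against WT. These neighbours were named after their values had been seen.

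**Figure D4:**
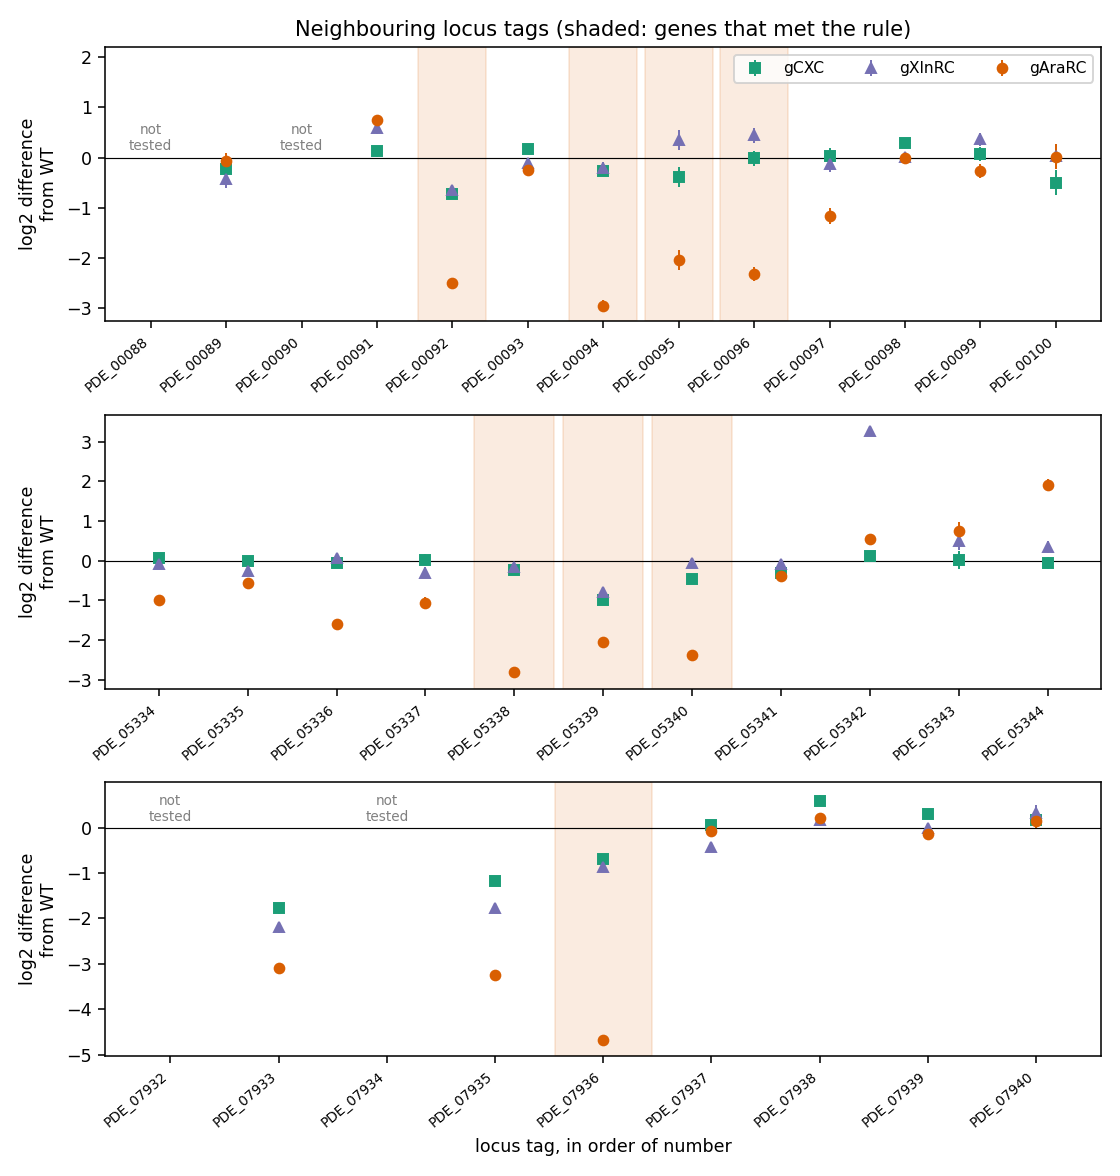
Log2 difference from WT (points, with the limma standard error as bars) of neighbouring locus tags around both runs and around PDE_07936, for gCXC (squares), gXlnRC (triangles) and gAraRC (circles); shaded tags met the rule, and tags below the expression filter have no point. The gAraRC circles lie at -2.96 at PDE_00094, -2.81 at PDE_05338 and -4.67 at PDE_07936, against -0.24 at PDE_00093 inside the first run.

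The set contained 16 pairs of consecutive tags. In gCXC the members of such a pair differed from each other by a median of 0.25 on the log2 scale, against 0.46 over all 13861 pairs that can be formed from the 167 genes, and in gXlnRC by 0.29 against 0.48. In gAraRC the medians were 0.30 and 0.26. The cut at -1.75 left 82 of the 167 differences between that limit and -2, which keeps the gaps over all pairs small. With 16 pairs, nothing is read from the gAraRC medians. The rule held the gCXC and gXlnRC differences between -1 and 1 and set only an upper limit in gAraRC. The gaps are a description and were not tested. Some consecutive pairs were apart, with gaps of up to 1.15 in gCXC (PDE_01906 and PDE_01907) and 0.81 in gXlnRC (PDE_07226 and PDE_07227). Only 2 pairs differed by at most 0.2 in all 3 strains, and they are described because of these values. PDE_09441 had 108, 93.4 and 94.2 FPKM in WT, 67.9, 66.3 and 60.1 in gCXC, 164, 175 and 164 in gXlnRC and 14.97, 20.8 and 23.7 in gAraRC. Its neighbour PDE_09442 had 21.7, 18.7 and 20.4, 15.1, 14.01 and 12.2, 38.8, 29.1 and 35.2 and 3.47, 3.74 and 3.61, the same order of strains at a lower level. The other pair, PDE_08591 and PDE_08592, showed the reverse order of gCXC and gXlnRC. PDE_08591 had 60.2, 47.8 and 39.7 FPKM in WT, 62.4, 57.3 and 49.2 in gCXC, 25.6, 26.4 and 24.5 in gXlnRC and 8.97, 7.61 and 9.0003 in gAraRC, and PDE_08592 had 23.8 ± 2.498, 28.003 ± 4.43, 14.03 ± 1.43 and 4.12 ± 0.395 (mean ± SD, n = 3).

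The median WT level of the 167 genes was higher than that of the genes that could have met the rule, which is a description without a test. The WT level enters the rule, and the pseudocount of 1 shrinks the differences of low genes. The choice itself therefore favours higher WT levels, and its part in the shift was not tested. On the log2(FPKM + 1) scale a gene needs a WT level of about 2.36 FPKM or more to reach the threshold, which 8337 tested genes had by their mean log2 value. The median WT level of the 167 genes was 76.6 FPKM, with quartiles of 31.2 and 268, and that of the 8337 genes was 31.7, with quartiles of 12.6 and 82.0. The other 191 genes with a gAraRC difference of -1.75 or lower had a median of 51.8 FPKM in WT. Coding lengths recovered from the table had a median of 1116 nt in the set, with quartiles of 753 and 1677, close to the 1161 nt of all tested genes, with quartiles of 681 and 1773. The median SD of log2(FPKM + 1) over the 3 libraries of WT and of gCXC was 0.086 and 0.070 in the set and 0.10 and 0.078 in all tested genes. In gXlnRC and gAraRC the set's median SD was above that of all tested genes, at 0.11 and 0.13 against 0.087 and 0.11.

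**Figure D5:**
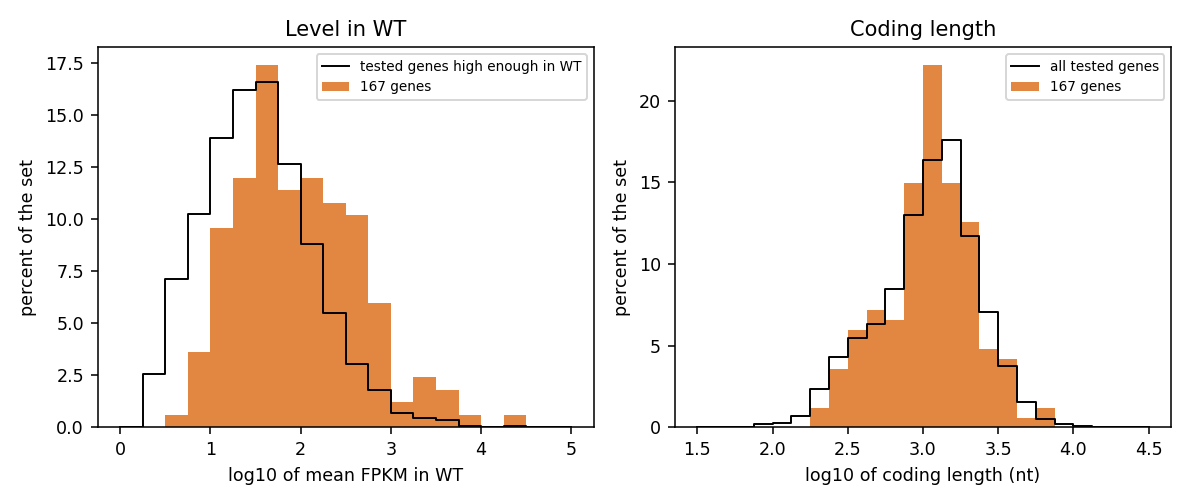
Left, share of genes (percent of the set) by log10 of the mean WT FPKM, for the 167 genes (bars) and the 8337 tested genes high enough in WT to reach the threshold (line); right, by log10 of the coding length in nt, for the 167 genes and all tested genes. The bars on the left are shifted to higher levels, with medians of 76.6 and 31.7 FPKM, and the distributions on the right largely coincide, with medians of 1116 and 1161 nt. The rule itself favours higher WT levels.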

How the data were processed

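The data are 1 table of FPKM values for 9979 genes and 12 libraries, deposited by the authors. Per the labels' protocols, mRNA was captured and made into stranded libraries. CASAVA 1.8, HISAT2 2.0.0, DESeq2 and featureCounts 1.5.0-p1 appear in the submitters' processing notes, with no roles given. No source used here gives the strand setting, the FPKM denominator, the annotation or the genome build. The members and lists were chosen with earlier results of these data known.

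The 9125 genes that reached 1 FPKM in 3 or more libraries were fitted in limma 3.58.1 (R 4.3.3). The response was log2(FPKM + 1), the design had a mean for each of the 4 strains (8 residual degrees of freedom), and the prior variance followed a trend. P-values (two-sided) were adjusted by Benjamini-Hochberg in each of 6 comparisons separately. The pseudocount of 1 understates the changes of low genes. Replicates are biological per the series' design text. Values of a gene are whole multiples of what 1 read is worth, and from these steps library totals, reads per gene and coding lengths (multiples of 3 nt, whole within 0.1 reads) were inferred for 9123 of the tested genes. Fit and inference were run on simulated data, in which lengths were multiples of 3 nt and totals were the summed reads. These assumptions were built in, so the simulation cannot decide whether they hold for the deposited values.

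Named genes are the 10 lowest in gAraRC, the 6 highest in WT, the 2 highest and 2 lowest in gCXC and in gXlnRC, those in runs of at least 3 with at most 1 tag skipped, and the 3 on either side of the threshold. Others were named after their values were seen. Functional lists and conidiation markers could not be applied, because 0 tags matched the reference gene table (assembly ASM172317v3). Alternatives were other pseudocounts, filters, scalings and limits, a replicate block, no trend, and each library left out. Python 3.11.15, pandas 2.3.3, numpy 2.4.6 and matplotlib 3.10.9 were used for tables and plots.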

Additional observations from a re-analysis of the deposited data

How the results depend on the processing

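Of 941 values recomputed under alternatives, 19 that summarise a comparison and 77 of single named genes moved beyond their spread or by over 1.5 times, and no signed value changed sign. The number of genes that met the rule was 105 with a pseudocount of 5 (96 shared with the 167), 229 with a pseudocount of 0.1 (160 shared), 81 with quantile normalization, 73 with median-of-ratios scaling, 285 with a limit of -1.5 in gAraRC, 85 with a limit of -2 and 111 with a band of 0.75 in gCXC and gXlnRC. Genes with another at the next tag numbered 14 with a pseudocount of 5 and 15 with median-of-ratios scaling, where fewer genes met the rule, and 47 of the 167 had another within 5 tags. The median gAraRC minus WT difference of the 167 genes was -2.12 and -1.79 with pseudocounts of 0.1 and 5, -1.66 with median-of-ratios scaling, -1.85 with TPM and -1.72 with quantile normalization. That of gXlnRC was -0.10, -0.11 and -0.12 under these 3 scalings, and that of gCXC -0.18 with TPM and -0.21 with quantile normalization. A filter of 5 FPKM or no filter left the same 167 genes.

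When each library was left out in turn, 152 to 178 genes met the rule, of which 147 to 166 were among the 167. Between 25 and 32 genes then had another at the next tag, and the gAraRC median ran from -2.03 to -1.97. Calls among the 167 genes numbered 97 to 117 for gCXC against WT, 102 to 118 for gXlnRC against WT and 110 to 125 for gCXC against gXlnRC, and stayed at 167 for gAraRC against each other strain. Labels number the replicates 1 to 3 in every strain. Deviations of same-numbered libraries of different strains correlated between -0.094 and 0.18 (median 0.036), with 3 of 18 pairs over 0.1. Those of different-numbered libraries correlated between -0.186 and 0.213 (median -0.018), with 4 of 36 pairs over 0.1. With 3 libraries in each strain this cannot decide whether the numbers pair the libraries, and the main fit assumed no pairing. With the replicate block, 115 of the 167 genes were called for gCXC against WT, 113 for gXlnRC against WT and 121 for gCXC against gXlnRC, against 114, 114 and 120 without it. Depth limits the 4 genes with fewer than 10 reads in a gAraRC library.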
